A study of Mus musculus with 2 samples.

Results

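Toll-like receptors are membrane proteins of innate immune cells that recognise microbial molecules and some molecules released by damaged cells. The expression of 10 genes of this system was followed in microglia, the immune cells that reside in brain tissue: the receptor genes Tlr1, Tlr2, Tlr3, Tlr4, Tlr7, Tlr9 and Tlr13, the co-receptor gene Cd14, the accessory gene Ly86 and the adaptor gene Myd88. They were picked by symbol from 32285 gene IDs, with earlier results of these data known. All 10 were found, each under 1 ID. The data came from 2 single-cell RNA libraries, 1 from mice with fetal growth restriction (FGR, impaired growth before birth) and 1 from Control mice. Both were made from Tmem119-positive cells, sorted by flow cytometry from the hippocampus of mice aged 3 weeks after birth and carrying 1 copy of the Tmem119-tdTomato allele, which reports a gene that marks microglia by red fluorescence (Tmem119-tdTomato+/-). The sources used here do not give how growth was restricted, the strain or the number of animals pooled in each library.

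Receptors at the cell surface, such as TLR2 with TLR1 and TLR4 with CD14, bind mainly bacterial lipoproteins and lipopolysaccharide, whereas TLR3, TLR7, TLR9 and TLR13 read nucleic acids inside endosomes. All of the receptors named here except TLR3 signal through the adaptor MyD88, which recruits IRAK kinases and leads to NF-kB activation and cytokine transcription. TLR3 uses the adaptor TRIF, encoded by Ticam1. In the brain microglia are a main cell type expressing this system, and CD14, TLR2 and TLR4 are known there for responses to bacterial products and to misfolded proteins.

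After barcodes with at least 1500 unique molecular identifiers (UMIs, tags that count captured transcript molecules), at least 200 genes and at most 10% mitochondrial UMIs were kept, 8618 FGR cells and 10687 Control cells remained. They held 45441515 and 53560293 UMIs, with medians of 4919.5 and 4657 UMIs per cell, and 31 barcodes occurred in both libraries. All 12 microglial markers were detected in each library, each in at least 77.8% of the FGR cells and at least 88.3% of the Control cells. Summed over 77 markers of other cell types, the level was 775.2 UMI counts-per-million (CPM) in FGR cells and 652.7 in Control cells, of which astrocyte markers made up 326.7 and 195.4 and red blood cell markers 34.0 and 121.7. Monocyte markers came to 11.0 and 11.9 CPM, with Ly6c2 and Chil3 at 0 in both. Xist had 5 and 4 UMIs, and Y-linked genes were found in 61.4% and 62.3% of cells, so both libraries consist almost wholly of male cells, which bears on the X-linked Tlr7 and Tlr13. The libraries stood apart: clustered together without the genes of this pathway, the largest cluster held 7082 FGR and 104 Control cells and the next 95 FGR and 6808 Control cells. With 1 library per group no difference was tested, each has no replicate check, and the 95% intervals below cover counting error only.

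The first question was how strongly each gene of the system was expressed. Ly86, which encodes MD-1, the partner protein of the receptor-like molecule CD180, had the highest level, 1216 CPM in FGR cells and 1138 in Control cells. It ranked 111th and 113th among all genes. Cd14, whose product hands lipopolysaccharide to TLR4, followed at 401 CPM in FGR cells (395.2 to 406.9) and 282.2 in Control cells (277.8 to 286.8). Tlr7, the sensor of single-stranded RNA, was the most abundant receptor gene, at 230.0 CPM in FGR cells (225.6 to 234.5) and 172.4 in Control cells (168.9 to 175.9). These 3 stood above the other members in both libraries, with no overlap of their intervals.

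The remaining receptors lay close together. Tlr13, a sensor of bacterial ribosomal RNA, stood at 77.1 CPM in FGR cells and 68.3 in Control cells, and Tlr2 at 75.7 and 67.2. Tlr3, the sensor of double-stranded RNA, stood at 67.2 and 63.5 CPM, and Tlr4 at 54.0 and 59.7. In the FGR library the intervals of Tlr13 and Tlr2 overlapped, and in the Control library so did each step from Tlr13 through Tlr2 and Tlr3 to Tlr4, so that order is not resolved. Myd88 had a lower level than these receptors, 39.3 CPM in FGR cells and 41.9 in Control cells. Tlr1, whose product pairs with TLR2 to bind triacylated lipoproteins, stood at 24.0 and 25.5 CPM. Tlr9, the sensor of unmethylated CpG DNA, was the lowest member, at 5.39 CPM (245 UMIs) in FGR cells and 5.55 (297 UMIs) in Control cells. The order of the 10 genes was the same in both libraries. Counts are of 3′ ends, 1 per molecule and not divided by length, so comparisons between genes also depend on how well each 3′ end is captured.

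**Figure D1:**
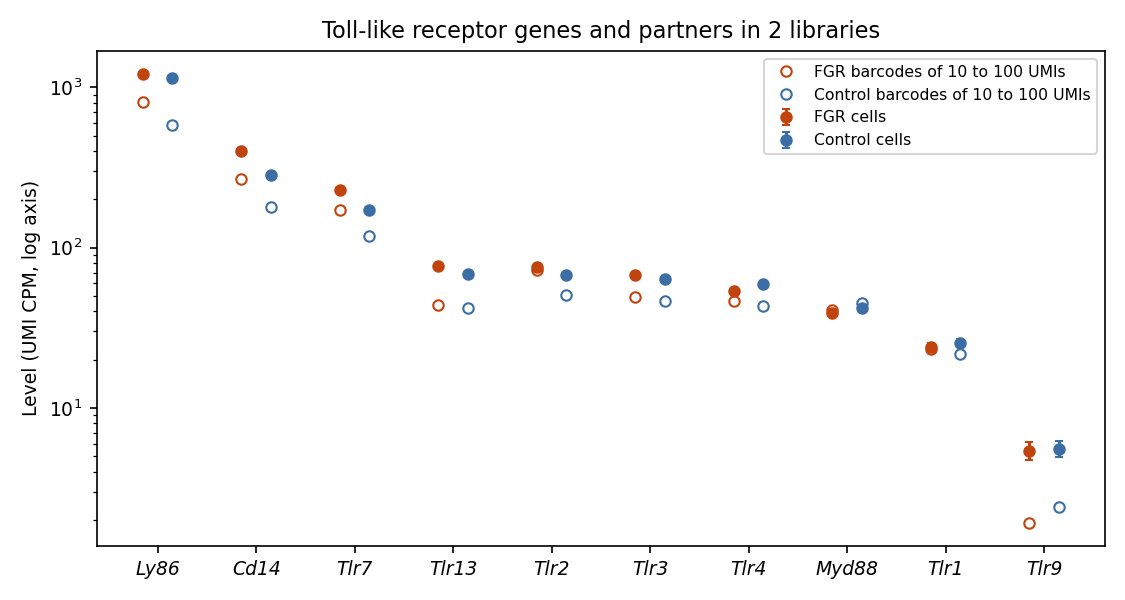
Level of each member in UMI counts-per-million on a log axis in cells of the FGR and Control libraries (filled points with 95% Poisson intervals) and in barcodes of 10 to 100 UMIs of the same libraries (open points). Ly86, Cd14 and Tlr7 stand above the other members in both libraries, and Tlr9 lies lowest.

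All 10 genes are annotated as protein-coding, and the spans below are in GRCm38 (mm10). Cd14 (ENSMUSG00000051439) lies on chromosome 18, 36725067 to 36726798, and Tlr7 (ENSMUSG00000044583) on chromosome X, 167304929 to 167330558. Tlr2 lies on chromosome 3, 83836272 to 83841767, Tlr4 on chromosome 4, 66827584 to 66930284, and Tlr3 on chromosome 8, 45395665 to 45411080. The span of Myd88 (chromosome 9, 119335934 to 119341411) overlaps those of Acaa1a and Slc22a14, and that of Tlr3 overlaps the antisense gene Gm45542. Slc22a14 lies on the same strand as Myd88 and Acaa1a on the opposite one. Whether strand was used in counting is not given, and strand could not separate Myd88 from Slc22a14. UMIs of these overlapping pairs may therefore not be fully separated. Tlr9 lies on chromosome 9, 106222598 to 106226883, Tlr13 on chromosome X, 106143204 to 106160493, and Ly86 on chromosome 13, 37345208 to 37419036. Tlr1 (chromosome 5, 64924679 to 64933563) has a closely related paralog, Tlr6, between which reads could be split.

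RNA outside cells was checked in barcodes of 10 to 100 UMIs, which mostly hold free RNA. There Cd14 stood at 267.8 CPM in FGR barcodes and 180.3 in Control barcodes, Tlr7 at 172.7 and 117.8, and Ly86 at 815.9 and 585.7. The levels of Myd88, 40.9 and 45.3 CPM, were about those in cells. The level in these barcodes over that in cells ranged from 0.354 for Tlr9 to 1.04 for Myd88 in the FGR library, and from 0.433 for Tlr9 to 1.08 for Myd88 in the Control one. As a further check, 22 cells of a cluster led by endothelial genes such as Cldn5 and Sox17 (17 FGR and 5 Control cells, median 6545 UMIs) held 11 UMIs of Cd14, 2 of Tlr7 and 0 of Tlr4. A Cd14 UMI was found in 9.09% of them, 11.8% of the FGR cells and 0% of the Control cells. The Cd14 level of this cluster thus rests on few cells and is not an even level of free RNA. Tmem119 stood there at 62.8 CPM. Over all cells both Cd14 and Tlr7 lay far above their levels in this cluster, 62.8 and 11.4 CPM.

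The number of cells with a UMI followed these levels. Cd14 was found in 76.6% of FGR cells (75.7 to 77.5%) and 68.6% of Control cells (67.7 to 69.5%), and Tlr7 in 64.4% (63.4 to 65.4%) and 53.4% (52.5 to 54.4%). Ly86 was found in 97.1% and 97.3%. Tlr2 was found in 27.6% and 26.1% of cells, Myd88 in 17.9% and 18.2%, and Tlr9 in 2.73% and 2.69%. Shares rise with depth, so each cell was also thinned to 1500 UMIs. Cd14 was then found in 40.9% of FGR cells and 33.5% of Control cells, and Tlr7 in 28.9% and 23.1%. At that depth 46.8% of FGR cells and 50.3% of Control cells carried no UMI of any of the 7 receptor genes, against 12.1% and 14.5% at their own depth. A cell without a receptor UMI therefore need not lack the transcript.

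The spread over cells was described in thinned cells. For Cd14 the variance of UMIs over their mean was 1.33 in FGR cells and 1.15 in Control cells, where 1 is the value for counting error alone. The same ratio was 1.24 and 1.22 for Ly86, 1.12 and 1.08 for Tlr2, 1.08 and 1.06 for Tlr7, and 1.01 and 1.01 for Myd88. This ratio grows with the level, and the excess variance over the squared mean was 1.13 and 0.801 for Tlr2, against 0.560 and 0.335 for Cd14, so relative to its level Tlr2 was the less evenly spread of this pair in both libraries. At least 4 Cd14 UMIs were held by 104 thinned FGR cells (1.21%) and 36 thinned Control cells (0.337%). At its own depth, 1 FGR cell held 49 Cd14 UMIs, and the highest Control cell held 25.

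**Figure D2:**
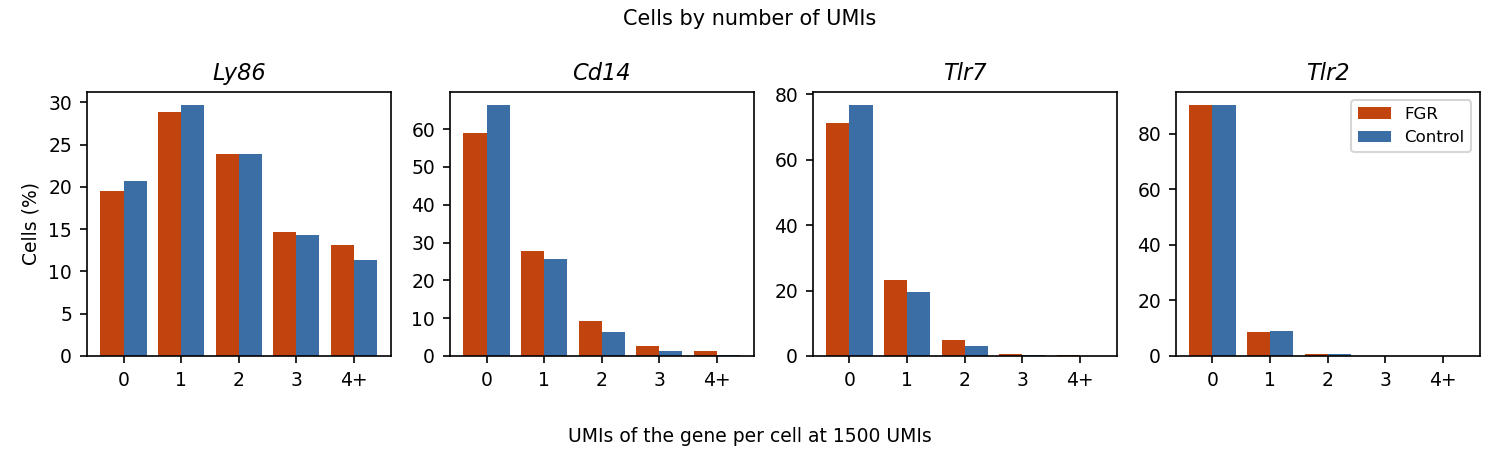
Percentage of cells (vertical axis, from 0) with 0, 1, 2, 3 or at least 4 UMIs of Ly86, Cd14, Tlr7 and Tlr2 after each cell was thinned to 1500 UMIs, in the FGR and Control libraries. Cells without a Cd14 UMI make up 59.1% of the FGR library and 66.5% of the Control library, while the bars of Tlr2 nearly coincide.

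The main comparison asked whether the system differed between microglia of growth-restricted and Control mice. Cd14 and Tlr7 were higher in FGR cells, and the other 8 members differed little. The ratio of FGR over Control was 1.42 (1.39 to 1.45) for Cd14 and 1.33 (1.30 to 1.37) for Tlr7. A rule of size was applied to every gene of at least 50 CPM in at least 1 library: the whole interval of the ratio had to lie beyond 1.5-fold. Of 7 members that reached that level, 0 were higher and 0 were lower by this rule. Of all 3512 genes measured, 2.48% were higher and 1.17% lower, 3.64% in either direction. With a smaller limit, 25% above 1 or the reciprocal of that, 2 of the 7 members, Cd14 and Tlr7, were higher and 0 lower. The share of all genes past this limit was 4.64% higher and 5.1% lower, 9.74% in either direction. Their ratios lay at percentiles 96.7 and 96.1 of all measured genes. Tlr1, Myd88 and Tlr9 were below the minimum level.

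The remaining ratios lay near 1. Tlr2 had a ratio of 1.13 (1.08 to 1.18), Tlr13 of 1.13 (1.08 to 1.18), Ly86 of 1.07 (1.06 to 1.08) and Tlr3 of 1.06 (1.01 to 1.11). Tlr4, the lipopolysaccharide receptor that CD14 serves, had a ratio of 0.903 (0.857 to 0.953), on the other side of 1 from Cd14. Myd88 had a ratio of 0.940 (0.882 to 1.0003), Tlr1 of 0.944 (0.871 to 1.02) and Tlr9 of 0.972 (0.818 to 1.16), all with intervals that held 1. The median log2 ratio was 0.17 over the 7 members measured and -0.07 over all genes measured. The ratio of Tlr2 was 1.004 when every cell was thinned to the same depth and 1.06 as the mean of per-cell CPM, both below its counting interval. Thinning discards UMIs at random, so the thinned ratio has a wider counting error than that interval. In barcodes of 10 to 100 UMIs the ratio was 1.49 (1.32 to 1.67) for Cd14, 1.47 (1.27 to 1.69) for Tlr7, 1.45 (1.16 to 1.80) for Tlr2 and 1.39 (1.31 to 1.49) for Ly86. With 5% of UMIs subtracted in the proportions of those barcodes, the ratios in cells were 1.42 for Cd14 and 1.33 for Tlr7.

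**Figure D3:**
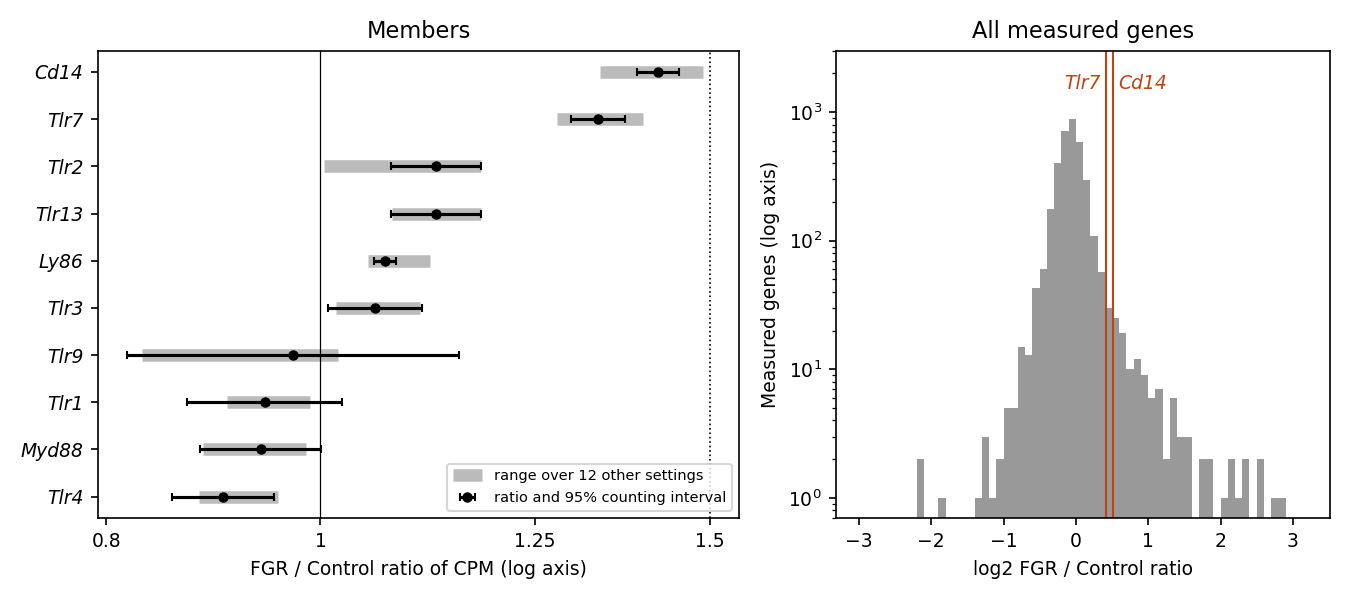
Left, ratio of FGR over Control CPM for each member on a log axis with its 95% counting interval (black) and the range over 12 other processing settings (grey); the dotted line marks 1.5. Right, histogram of the log2 ratio of all 3512 measured genes (log axis of gene number), with Cd14 and Tlr7 marked. The lowest ratio over the settings is 1.34 for Cd14 and 1.28 for Tlr7. The range of Tlr2 reaches down to 1.004, in thinned cells, which hold fewer UMIs.

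Immediate early genes, which respond within minutes to stimulation and to cell dissociation, differed between the libraries: of 23 measured, 13 passed the rule of size upward and 1 downward, against 2.48% and 1.17% of all measured genes, and their summed level was 46892 CPM in FGR cells and 33660 in Control cells. The rise was not shared by all of them: 18 of the 23 had ratios above 1, such as Dusp1 (4.68) and Fos (2.15). Egr1 (0.755) and Egr2 (0.456) were among those below 1. The list also held the heat shock genes Hspa1a (1.69) and Hspa1b (1.67). Their list was chosen with earlier results of these data known. Because of the difference, cells were divided into 4 ranges by their immediate early UMIs after thinning. Within them Cd14 had ratios of 1.34, 1.36, 1.27 and 1.45 from the lowest to the highest range, and Tlr7 of 1.22, 1.26, 1.30 and 1.42, each with an interval above 1. With Control cells weighted to the FGR shares of the 4 ranges, the ratio was 1.38 for Cd14 and 1.33 for Tlr7. Inside the FGR library Cd14 stood at 335.6, 382.4, 393.7 and 445.6 CPM across the ranges, and inside the Control library at 250.7, 281.9, 309.2 and 307.8. Tlr7 stood at 201.6, 222.1, 229.5 and 247.5 CPM in FGR cells, with intervals of the lowest and highest range apart, and at 165.0, 175.6, 177.0 and 174.5 in Control cells. Ly86 ran the other way, with 1314, 1292, 1238 and 1116 CPM in FGR cells and 1204, 1179, 1089 and 981 in Control cells. The ranges are parts of a continuous score, and 694 of 19305 cells lay at a limit between them.

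**Figure D4:**
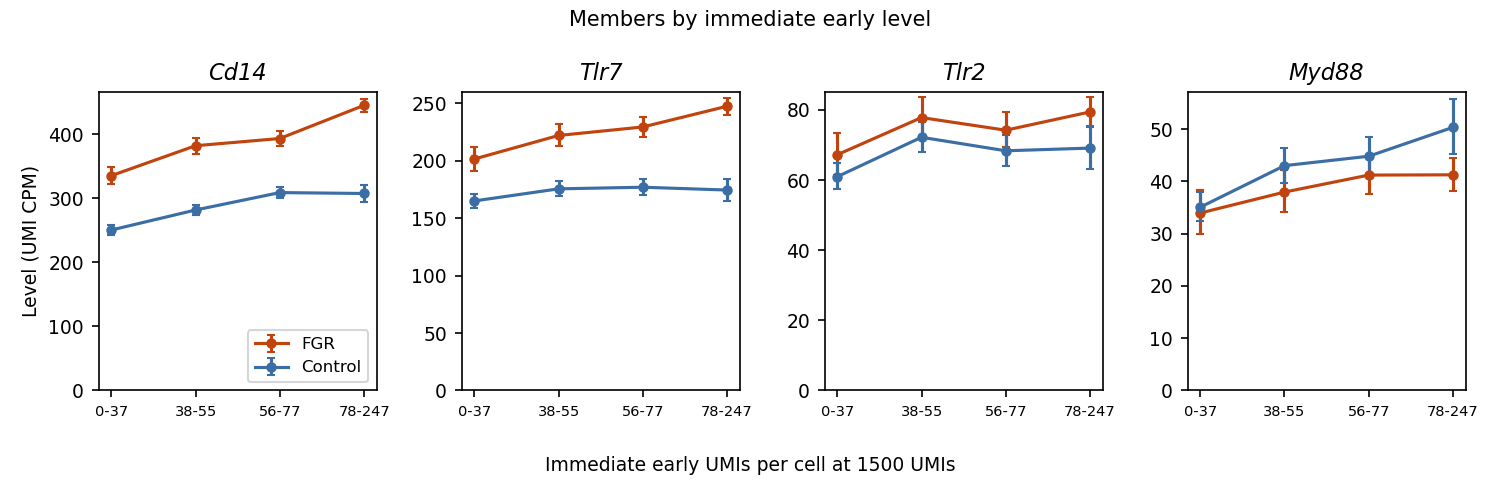
Level of Cd14, Tlr7, Tlr2 and Myd88 in UMI counts-per-million (from 0, with 95% Poisson intervals) in 4 ranges of immediate early UMIs per cell at 1500 UMIs, in the FGR and Control libraries. The FGR points of Cd14 and Tlr7 lie above the Control points in every range, and those of Myd88 do not.

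The next question was how the members varied among groups of cells. Clusters are called microglia-like only where the markers allow, and members and pathway genes took no part in the clustering, although genes correlated with them did. In a microglia-like cluster led by Lgals3, Spp1 and Itgax (596 FGR and 482 Control cells), genes known from activated microglia, the receptor pair Tlr2 and Tlr1 was high. It also held 22 cells led by border macrophage genes such as Cd163, 20 of them FGR. Tlr2 stood at 145.1 CPM there against 68.7 in the other FGR cells, a ratio of 2.11 (1.93 to 2.31), and at 104.9 against 64.9 in the other Control cells, a ratio of 1.62 (1.44 to 1.81). Tlr1 had ratios of 1.52 (1.27 to 1.81) and 2.18 (1.84 to 2.57) against the other cells of the FGR and Control libraries. Cd14 had ratios of 1.46 (1.40 to 1.52) and 1.19 (1.11 to 1.26), and without those 22 cells of 1.41 (1.35 to 1.48) and 1.18 (1.10 to 1.26). Tlr3 was low there, at 34.8 CPM against 70.5 in the other FGR cells (ratio 0.494, 0.416 to 0.584) and at 33.4 against 65.3 in the other Control cells (0.512, 0.416 to 0.623). Myd88 had ratios of 0.817 and 0.773, with intervals below 1, and Ly86 of 0.993 and 0.967. These cells had a median of 6232 UMIs, so they were deeper than the average cell, which CPM corrects for.

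In a microglia-like cluster led by interferon-induced genes such as Ifit3 and Rsad2 (71 FGR and 126 Control cells), Tlr3 and Tlr2 were high. Tlr3 stood at 183.6 CPM against 66.2 in the other FGR cells, a ratio of 2.77 (2.17 to 3.50), and at 101.8 against 63.1 in the other Control cells, a ratio of 1.61 (1.23 to 2.08). Tlr2 had ratios of 2.42 (1.89 to 3.06) and 1.75 (1.36 to 2.22). Cd14, Tlr4, Tlr13, Tlr9, Tlr1 and Myd88 had intervals that held 1 there in both libraries. Tlr7 had ratios of 0.929 (0.741 to 1.15) and 1.22 (1.02 to 1.46).

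In the microglia-like cluster of mitotic cells, led by genes such as Bub1 and Mki67 (21 FGR and 23 Control cells), several members were low. Cd14 stood at 133.9 CPM against 402.0 in the other FGR cells (ratio 0.333, 0.209 to 0.505) and at 193.2 against 282.5 in the other Control cells (0.684, 0.471 to 0.961). Tlr7 had ratios of 0.396 (0.222 to 0.654) and 0.577 (0.336 to 0.924). Only 2 UMIs of Myd88 were found in these 44 cells, 0 of them in the FGR library. Ly86 was not low, with ratios of 1.15 (1.01 to 1.31) and 0.973 (0.839 to 1.12).

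**Figure D5:**
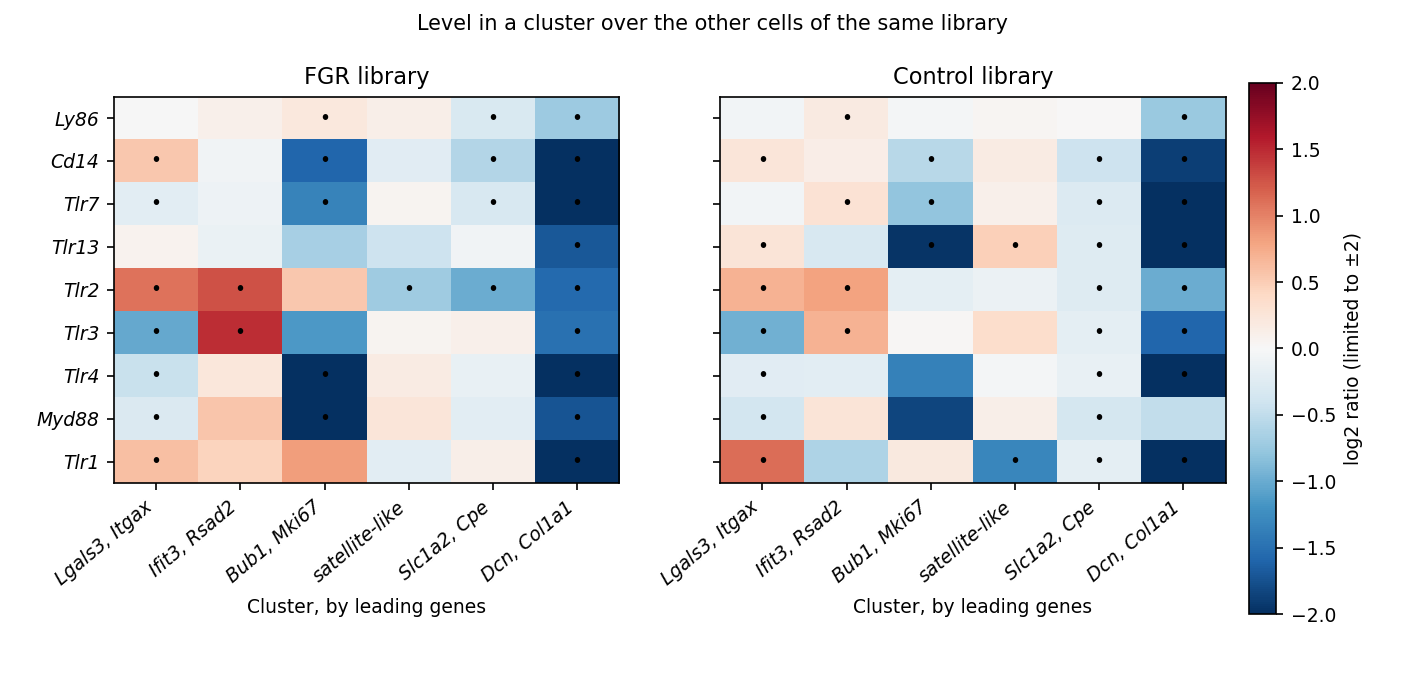
Level of each member except Tlr9 in 6 clusters over its level in the other cells of the same library, as log2 ratio (colour, limited to 2 either way), with the FGR library left and the Control library right. The cluster marked satellite-like was led by predicted genes such as Gm10718. A dot marks a 95% counting interval that leaves out a ratio of 1. Tlr2 and Tlr1 are high and Tlr3 low in the Lgals3-led cluster of both libraries, and Tlr3 and Tlr2 are high in the Ifit3-led cluster.

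Clusters outside the microglia-like class held 7.73% of the FGR cells and 28.4% of the Control cells. The largest, of 507 FGR and 2819 Control cells, carried all 12 microglial markers but was led by the astrocyte gene Slc1a2 with Cpe and Hes1, and so was left unnamed. Its Cd14 level was 271.4 CPM against 406.1 in the other FGR cells and 227.6 against 303.7 in the other Control cells, ratios of 0.668 and 0.749, and Tlr7 had ratios of 0.805 and 0.829. This cluster makes up more of the Control library, and without it the FGR over Control ratio was 1.34 for Cd14 and 1.28 for Tlr7. A cluster led by the collagen genes Col1a1 and Col3a1 (135 FGR and 52 Control cells, median 2622 UMIs) had low levels, with Cd14 at 91.9 and 76.5 CPM and Tlr4 at 5.99 and 8.50 CPM in the FGR and Control libraries.

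At a finer clustering, 22 cells, 20 of them FGR, formed a cluster led by Cd163, Ms4a7, Pf4 and F13a1, markers of macrophages at the borders of the brain. In the 20 FGR cells Cd14 stood at 1098 CPM (933 to 1285), against 401 in all FGR cells, and Tlr2 at 169.0 (108.3 to 251.4). Tlr3 was not detected there, which allows up to 26.0 CPM. The same FGR cells held 8 of the 9 UMIs of Tlr8, a relative of Tlr7, that the FGR library contained. They held 156 of the 18224 Cd14 UMIs of the FGR library.

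Within clusters of at least 50 cells in each library, 7 in number, the FGR over Control ratio of Cd14 ranged from 1.08 to 1.70, and in 4 of them its interval lay above 1 and in 0 below. It was highest in the Lgals3-led cluster, 561.8 against 331.1 CPM, a ratio of 1.70 (1.58 to 1.83). That cluster held all 22 cells of the Cd163-led one, and without them the ratio was 1.65 (1.53 to 1.78). Tlr7 ranged from 1.001 to 1.49, with 3 intervals above 1 and 0 below. At the finer clustering, also with 7 such clusters, the interval lay above 1 in 3 for Cd14 and in 1 for Tlr7. In the cluster of 7082 FGR and 104 Control cells, Tlr7 stood at 238.6 CPM in FGR cells and 238.4 in Control cells, a ratio of 1.001 (0.826 to 1.23), and in that of 95 FGR and 6808 Control cells at 270.7 against 182.3, a ratio of 1.49 (1.22 to 1.80). Tlr2 turned with the cluster, with a ratio of 1.38 (1.21 to 1.59) in the Lgals3-led one and 0.661 (0.507 to 0.849) in the Slc1a2-led one. Tlr3 had a ratio of 1.80 (1.27 to 2.58) in the interferon-led cluster. Tlr1 stood at 34.8 against 51.9 CPM in the Lgals3-led cluster, a ratio of 0.671 (0.532 to 0.845). Cells fell into clusters by expression, so these ratios are in part set by that assignment.

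The other genes of the pathway were read against the same background, with 2.48% of all measured genes past the rule upward and 1.17% downward. Their lists were chosen with earlier results of these data known. Of 5 further receptor genes 0 reached 50 CPM. Tlr6, Tlr12 and Tlr5 stood at 20.8, 19.3 and 9.99 CPM in FGR cells and 25.7, 18.3 and 9.48 in Control cells, while Tlr8 and Tlr11 had 9 and 8 UMIs in FGR cells and 2 and 3 in Control cells. Of 10 measured accessory genes 0 passed the rule of size, and their median log2 ratio was -0.08. Cd180, whose protein binds MD-1, stood at 123.5 CPM in FGR cells and 166.4 in Control cells, a ratio of 0.743 (0.718 to 0.768), while its partner Ly86 had 1.07. Ly96, which encodes MD-2, the partner of TLR4, stood at 59.6 and 68.6 CPM. Unc93b1, which carries the nucleic acid receptors to endosomes, stood at 918.6 and 969.4 CPM, and the chaperone gene Hsp90b1, needed to fold the receptors, had a ratio of 1.23 (1.21 to 1.24).

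Of 6 further adaptor genes 2 were measured, Pik3ap1 (ratio 0.913) and Syk (1.02), and 0 passed the rule. Ticam1, the TLR3 adaptor gene, stood at 17.9 CPM in FGR cells and 19.5 in Control cells. Of 9 measured kinase and ubiquitin ligase genes, Map3k8, a kinase that links NF-kB and MAP kinase signalling, was higher at 93.5 against 43.7 CPM, a ratio of 2.14 (2.04 to 2.25), and 0 were lower. The list's median log2 ratio was -0.18, with Irak1 at 0.884, Irak2 at 1.10 and Tab2 at 0.830. Of 5 measured brakes of the pathway, Tnfaip3 (ratio 4.13) passed the rule upward and 0 downward, while Tnfaip8l2 had 0.805. Socs1, a brake on cytokine signalling just under the minimum level, stood at 17.8 CPM in FGR cells and 41.2 in Control cells, a ratio of 0.431 (0.397 to 0.468), and passed downward with a minimum of 20 CPM. Of 7 measured transcription factor genes 0 passed the rule in all cells, and the median log2 ratio was -0.17. All 7 had ratios below 1, as did 66.1% of all measured genes. The lowest of these were Nfkb2 at 0.676 (0.637 to 0.718) and Irf8, a factor of microglial identity and activation, at 0.693 (0.681 to 0.705). In microglia-like clusters only, these 2 passed the rule downward, at 0.616 (0.578 to 0.656) and 0.650 (0.638 to 0.662). The share of all genes past the rule is not given here for those clusters or for the minimum of 20 CPM.

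Of 11 measured target genes of the receptors, 5 passed the rule of size upward and 0 downward, against 2.48% and 1.17% of all measured genes, and the median log2 ratio was 0.30. They were Cxcl10, Cd83, Nfkbia, Ccl4 and Ccl3, with ratios of 7.40, 2.76, 2.58, 2.27 and 1.75. Of those that did not pass, Nfkbiz had a ratio of 1.23, Tnf of 1.14, Sod2 of 1.04, Il1a of 0.862, Icam1 of 0.827 and Ccl2 of 0.772. Cxcl2, just under the minimum level, stood at 43.7 CPM in FGR cells and 11.3 in Control cells. Its ratio was 3.88 (3.54 to 4.26), and it passed upward with a minimum of 20 CPM. The target genes answer many other signals as well. Their list was chosen with earlier results of these data known, so these counts are not independent of those results.

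As a description of pattern, the genes most like each member were sought among 3512 measured genes over 15 groups of cells (clusters of at least 50 cells, split by library). Tlr2 was most like Tnf (Pearson r = 0.93), the microglial receptor gene Gpr84 (0.91) and Il1a (0.89). Without the collagen-led cluster, which was low in most members, these were 0.93, 0.92 and 0.84 over 13 groups. Cd14 was most like Rab20 (0.98), Birc3 (0.97) and Tmem104 (0.96), which came to 0.86, 0.78 and 0.70 without that cluster. Tlr7 was most like Gcnt1 (0.99), Smad7 (0.98) and Ptprc (0.98), which came to 0.80, 0.78 and 0.64. Tlr3 was most like Zup1 (0.92), Il13ra1 (0.91) and Fcgr1 (0.91), which came to 0.94, 0.88 and 0.86. Tlr4 was most like Evl, Ikzf1 and Ncoa3 (0.98 each, and 0.78, 0.65 and 0.87 without that cluster), and Tlr13 most like Dpy19l4, Taf1d and Ddi2 (0.95 each, and 0.66, 0.74 and 0.72). Ly86, which varied least, with a log2 range of 0.96 over the groups, was most like Btg1, C1qc and C1qa (0.96, 0.96 and 0.95, and 0.76, 0.81 and 0.91). Groups of 1 library share its depth and free RNA.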

How the data were processed

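Raw UMI counts were deposited for every gene and barcode, neither normalized nor filtered for cells. Per the file headers, Cell Ranger 4 made the matrices. The submitters' processing notes name Cell Ranger 3.0, Seurat 5.0 and mm10. The sources used here do not give the annotation or the use of strand, and coordinates are those of GENCODE M21 (GRCm38). Depth was 45441515 UMIs in FGR cells and 53560293 in Control cells, which gave intervals of at most 3.98% half-width for members of at least 50 CPM. Counts summed over cells were scaled to CPM, with exact Poisson intervals for levels, exact conditional intervals for ratios and Clopper-Pearson intervals for shares, at 95%. No test was made, since each group is 1 library. Doublets were not called; the 6% of cells richest in UMIs were left out as an alternative. Clustering used scanpy 1.11.5 (2000 variable genes, 30 components, 15 neighbours, Leiden resolution 0.5, 1.0 as the finer one) without members and pathway genes. A cluster was microglia-like with at least 3 microglial markers in 20% of cells and no other type ahead in its share of markers detected or among the 10 leading genes. The ratio and thinning were tested on simulated data. The planned split by Xist and Y-linked genes could not be fitted, with Xist in 5 and 4 cells.

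The members, lists and markers were chosen with earlier results of these data known. Genes named are all members, pathway genes past the rule of size and up to 2 per list with the largest change. Other pathway genes (the further receptors, Ly96, Unc93b1, Ticam1, Irak1, Irak2, Socs1, Ikbke, Tnf, Il1a, Icam1, Ccl2, Nfkbiz, Sod2, Cxcl2 and Acod1) were named after their values were seen. So were Dusp1, Fos, Egr1, Egr2, Hspa1a and Hspa1b of the immediate early list.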

Additional observations from a re-analysis of the deposited data

How the results depend on the processing

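The ratios of Cd14 and Tlr7 stayed above 1 in all 12 other settings, from 1.34 to 1.49 and from 1.28 to 1.40. Cd14 left its counting interval at 1.39 without the 6% of cells with the most UMIs, 1.35 in microglia-like clusters only, 1.34 without the Slc1a2-led cluster, 1.49 with the median ratio of measured genes set to 1, 1.37 as the mean of per-cell CPM, 1.38 in thinned cells and 1.38 when Control cells were weighted to the FGR shares of immediate early ranges. Tlr7 left it at 1.29 in microglia-like clusters only, 1.28 without the Slc1a2-led cluster and 1.40 with the median ratio set to 1. The cause was not tested. Thinned cells hold fewer UMIs, so ratios there have a wider counting error than these intervals. Leaving out that cluster, or the clusters led by collagen, endothelial and myelin genes, or the 22 Cd163-led cells, was chosen after seeing the data. The count of members higher was 2 with the limit of 25% and 0 with 1.5-fold. Tlr9 ranged from 0.831 to 1.02, Tlr2 from 1.004 to 1.18 and Tlr3 from 1.02 to 1.11, while Tlr4, Tlr1 and Myd88 stayed below 1 and Ly86 and Tlr13 above 1 in these settings. With all genes of at least 10 UMIs, 11 targets were higher by the rule of size, against 5, and 1 brake (Socs1) and 1 kinase (Ikbke, 0.383) were lower, against 0 and 0. Some of the added targets rest on few UMIs, such as Acod1 with 14 in FGR cells and 1 in Control cells. Socs1 was also lower with a minimum of 20 CPM, where the target Cxcl2 was higher. In microglia-like clusters only, Socs1, Nfkb2 and Irf8 were lower. The share of all genes past the rule with these other minimum levels or in these clusters is not given here. No paired analysis was possible because each group is 1 library, and no library could be left out for the same reason. Depth limits Tlr9 most, with an interval of 12.7% half-width in the FGR library.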
